A study of Homo sapiens with 6 samples.

Results

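The transcripts described here were the processed pseudogene transcripts of A549 cells, a human lung adenocarcinoma line. They were chosen as transcripts listed in both deposited tables whose GENCODE type on GRCh37 was processed_pseudogene or transcribed_processed_pseudogene and whose mean level over the 6 libraries was at least 0.5 FPKM (fragments per kilobase of transcript, scaled to library size). The rule gave 648 members of 58827 transcripts at that level and of 180253 in all, 572 of the first type and 76 of the second, from 645 genes. A further 1917 processed pseudogene transcripts were above 0 but under 0.5 FPKM, and 7725 were at 0 in all 6 libraries. CAPZA1P2 (0.5 FPKM), EEF1DP7 (0.502) and RPL11P1 (0.503) were the members just inside the minimum, and DDX10P1, MSANTD3P1 and PFN1P8 (0.498 each) lay just outside it.

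RNA-seq was carried out on A549 cells transfected with a negative control siRNA (si-ctrl, replicates 1 and 2), with an siRNA against the long noncoding RNA PLANE whose label carries no number (si-PLANE.1, replicates 1 and 2), or with the PLANE siRNA labelled siRNA2 (si-PLANE.2, replicates 3 and 4). All 3 groups are the same cell line, and the labels do not say whether the 2 libraries of a group came from separate cultures, so p-values measure the spread between these libraries alone. Each siRNA was compared with si-ctrl to ask which transcripts changed when PLANE was targeted, and both comparisons shared the si-ctrl libraries. Expected counts summed to between 10572151 and 20778431 per library.

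The si-PLANE.2 libraries stood apart before any test. Across the members, log2(FPKM + 1) gave a Pearson correlation of 0.718 to 0.785 for pairs not involving si-PLANE.2. It was 0.946 within si-PLANE.2, but 0.376 to 0.5 for a si-PLANE.2 library paired with any other. The median level of 28 replication-dependent histone genes, whose mRNAs lack a poly(A) tail, lay between 122 and 190 FPKM in the other 4 libraries but at 0.955 and 1.10 FPKM in si-PLANE.2. Below, the first 4 libraries are those of si-ctrl and si-PLANE.1. Both poly(A) isolation and rRNA removal are named in the study's methods, and which one each library received is not. How the RNA was prepared and which siRNA it came from therefore cannot be told apart in any si-PLANE.2 result below. Of the A549 and epithelial markers, KRT8, KRT18, AKR1B10, AKR1C1, ALDH1A1 and NQO1 were at 173 FPKM or more in every library, and EPCAM was at 14.8 to 26.5 FPKM in 4 libraries and 2.59 and 2.70 in si-PLANE.2. Among markers of other cells, PTPRC was at 0.02 FPKM or less, COL1A1 at 3.29 to 13.1 and CD68 at 18.2 to 63.

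Processed pseudogenes are copies of spliced mRNAs that were reverse-transcribed and inserted back into the genome, so they lack the introns of the gene they came from, called here the parent gene. Most carry no promoter of their own, and they are read when they lie within or beside another transcribed gene. Abundant housekeeping mRNAs such as those of ribosomal proteins have left the most copies, and a young copy can be so like its parent that a short read fits both.

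The stretches below show how far reads can separate a copy from its parent. Each is 120 bases of the parent's coding sequence or the matching part of the copy, read from the GRCh37 transcripts 5′ to 3′, with capitals where the pair differ. RPL21P16 (chr10:122114576-122114695, minus strand) and its parent RPL21 (chr13:27827914-27828409, plus strand, across introns), which encodes a ribosomal protein of the large subunit, are shown because they had the same letters, as did the copy ENSG00000196656 (chr4:114135430-114135549, minus strand) and RPS26 (chr12:56435951-56436325, plus strand, across introns), which encodes one of the small subunit:
RPL21P16 and RPL21: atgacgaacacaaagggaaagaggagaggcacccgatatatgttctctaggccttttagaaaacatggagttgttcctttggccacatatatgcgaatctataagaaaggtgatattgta
ENSG00000196656 and RPS26: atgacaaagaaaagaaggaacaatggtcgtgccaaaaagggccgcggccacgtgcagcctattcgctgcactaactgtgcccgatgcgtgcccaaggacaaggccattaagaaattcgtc

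KRT18P31 (chr5:36885545-36885664, plus strand), a copy of the keratin gene KRT18 (chr12:53343198-53343317, plus strand), and PIGCP1 (chr11:33097887-33098006, minus strand), a copy of PIGC (chr1:172411643-172411762, minus strand), are shown as older copies that lay in other genes and moved in opposite directions in si-PLANE.2. They differed from their parents at 12 and 11 of the 120 positions:
KRT18P31: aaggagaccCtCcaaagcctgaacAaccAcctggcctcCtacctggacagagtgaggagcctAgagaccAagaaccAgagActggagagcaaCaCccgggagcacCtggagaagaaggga
KRT18: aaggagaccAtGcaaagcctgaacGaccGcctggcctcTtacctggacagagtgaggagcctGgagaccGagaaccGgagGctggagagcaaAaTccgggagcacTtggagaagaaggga
PIGCP1: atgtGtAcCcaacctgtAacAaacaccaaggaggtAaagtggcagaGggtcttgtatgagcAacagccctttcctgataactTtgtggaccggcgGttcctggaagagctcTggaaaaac
PIGC: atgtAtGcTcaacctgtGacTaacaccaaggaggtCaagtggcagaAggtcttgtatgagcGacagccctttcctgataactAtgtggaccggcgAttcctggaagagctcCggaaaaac

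A protein-coding gene matching at least 50% of the transcript was found for 606 members, and the median identity to the closest one was 90.6%. A parent was named by the pseudogene's own symbol for 439 members, and for 419 of these the closest gene by sequence was the same one. No stretch of 150 bases, the length of a read, was shared exactly with another gene in 515 members, and every such stretch was shared in 52. Where reads fit several transcripts, estimated counts need not be whole: 200 members had a count that was not whole in at least 1 library, and 448 had whole counts throughout. The share with split counts was 97.4% of the 38 members at 99% identity or more, 58.5% of the 82 at 95 to under 99%, 23.9% of the 205 at 90 to under 95% and 17.6% of the 279 under 90%. The levels of the near-identical copies are therefore uncertain, since reads that fit both a copy and its parent can be divided between them.

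Levels were highly uneven. The median member had a mean of 1.24 FPKM and 455 of 648 were under 2 FPKM, while the 12 highest members held 75.6% of the summed mean FPKM of all 648. Of these 12, 11 had split counts and 9 were copies of cytosolic ribosomal protein genes. The members together took 0.168% to 0.192% of the counts of each library, with no separation of the groups, and their summed FPKM was 8057 and 8824 in si-ctrl, 7219 and 8498 in si-PLANE.1 and 7919 and 7742 in si-PLANE.2. In long transcripts the deposited FPKM matched a length about 232.2 to 252.4 bases below that of the transcript. The length used for members shorter than this was not estimated. Short members were listed at high FPKM on few reads: RPL39P3, a copy of 156 bases, was at 996 and 910 FPKM in si-PLANE.2 on 65.5 and 48.7 counts. Of all members, 273 stayed under 10 counts in every library.

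RPL23AP42, a copy of the large-subunit gene RPL23A with 99.6% identity, was the highest member at 1257 and 1604 FPKM in si-ctrl, 989 and 1251 in si-PLANE.1 and 2284 and 2181 in si-PLANE.2. RPL36AP37, identical to RPL36A where aligned, followed at 1785 and 2048, 1441 and 1719, and 685 and 683 FPKM in the same order of groups. ENSG00000196656 was at 1115 and 1313, 1102 and 1123, and 121 and 180 FPKM. On the FPKM scale, for RPL36AP37 and ENSG00000196656 the si-PLANE.2 libraries lay below the other 4, and for RPL23AP42 they lay above them. RPL21P16 reached 517 and 569 FPKM in si-ctrl, 429 and 620 in si-PLANE.1, and was listed at 0 in both si-PLANE.2 libraries. RPL22P1, a copy of RPL22, was at 407 and 573, 294 and 496, and 190 and 170 FPKM. H3P6, identical to the histone H3.3 gene H3-3A where aligned, was at 421 and 312, 408 and 464, and 247 and 271 FPKM, lowest in si-PLANE.2 on this scale, while its edgeR log2 fold change there was −0.04. The scaling of the test put si-PLANE.2 fold changes a median of 0.32 (log2) above those of the deposited FPKM, and all 126 members called there had the same direction in FPKM. The 2 longer transcripts of RPL9P8 and RPL9P9 (673 bases each) held identical values in every library, so they are 1 measurement counted under both names below. Their level was 53.2 and 35.0 FPKM in si-ctrl, 31.9 and 39.7 in si-PLANE.1 and 388 and 328 in si-PLANE.2. ITGB1P1, identical to the integrin gene ITGB1 where aligned, was at 138 and 76.1, 78.7 and 107, and 220 and 242 FPKM. ENSG00000234648, 158 bases identical to RPL3, was at 0 in the first 4 libraries and at 598 and 669 FPKM in si-PLANE.2 on 42.3 and 38.5 counts.

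**Figure D1:**
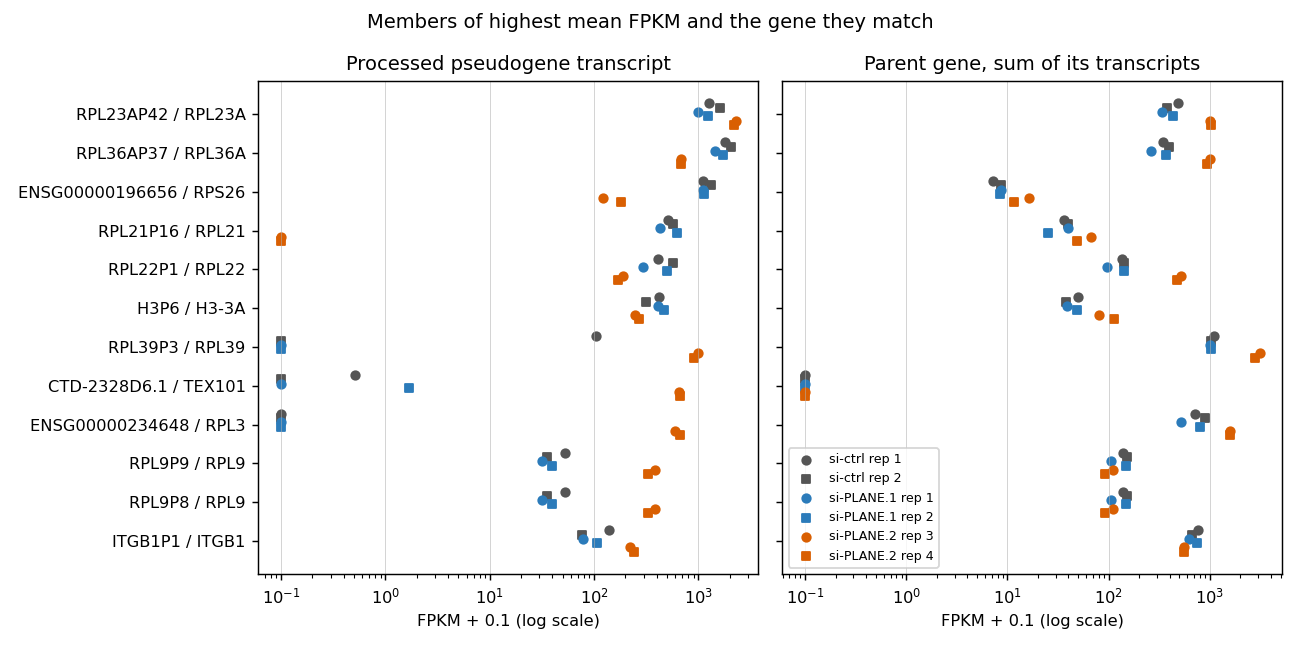
FPKM + 0.1 (log axis) in each library for the 12 members of highest mean FPKM (left) and for the gene each matches (right). Gene levels are sums over those transcripts of the gene that carry a gene identifier. Circles and squares mark the 2 libraries of a group. RPL21P16 is at 0 in si-PLANE.2 alone, and 8 of the 12 copies have a mean above that of a parent listed above 0.

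Most members were far below their parent gene. Over the 593 members whose parent was listed above 0, the median member stood at 1.43% of its parent's mean FPKM, and 40 were above it. The matched gene was listed at 0 for another 11. At 99% identity or more the median was 20.4%, against 1.06% under 90% identity. The copies of RPS26 and RPL21 were among those above their parents. RPS26 was listed at 7.08 to 16.4 FPKM in the 6 libraries, 82.0 times below its copy ENSG00000196656 by the means, and RPL21 at 25.03 to 66.9 FPKM, 8.36 times below RPL21P16. RPL23AP42 was 2.61 times and RPL36AP37 2.53 times their parents' mean level, and H3P6 was 5.76 times that of H3-3A. In si-PLANE.2 the order of RPL36AP37 and RPL36A turned, with the copy at 68.5% and 72.8% of the parent against 469% to 548% in the other 4 libraries. For RPL9P8 it turned the other way, from 23.1% to 38.4% of RPL9 to 353% and 355%.

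**Figure D2:**
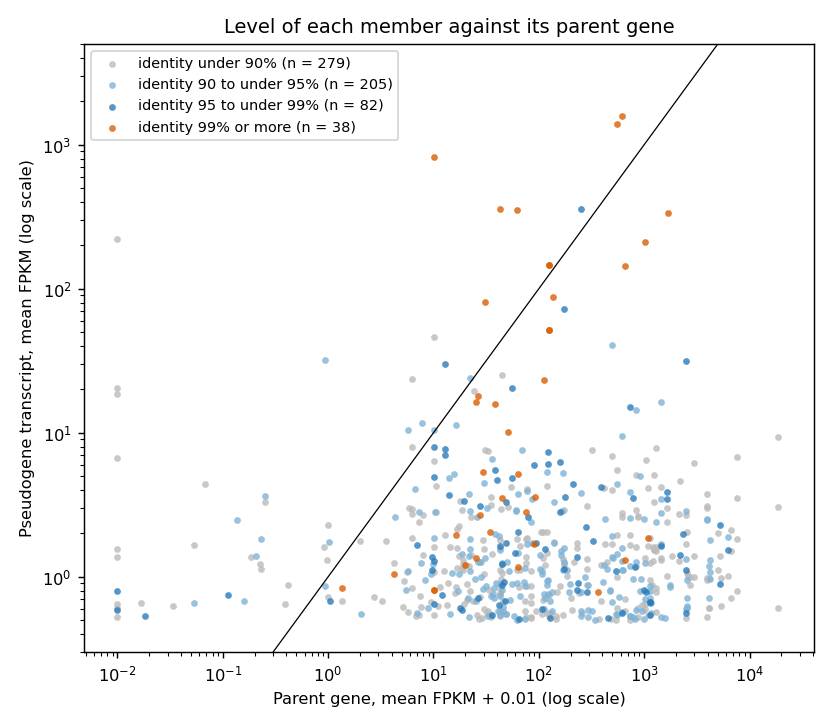
Mean FPKM over 6 libraries of each member (vertical) against mean FPKM + 0.01 of its parent gene (horizontal), both on log axes, coloured by identity to the closest protein-coding gene; the line marks equal levels. The members above 100 FPKM are mostly orange (99% identity or more), and most members lie well below the line.

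Targeting PLANE with si-PLANE.1 gave no called member: at an adjusted p under 0.05 (edgeR, quasi-likelihood) 0 of 648 passed, and 0% of all 58827 transcripts did. At an unadjusted p under 0.05 there were 4 members, where 4.19% of all transcripts were, and DESeq2 also called 0 members (377 of all transcripts). The median log2 fold change of the members was 0.15 (0.04 with members at 0 in a whole group set to the bound that 3 counts per library allow), against 0.00 over all transcripts tested, with 363 members above 0 (48.5% of all transcripts were) and 255 below (48.8%). Both si-PLANE.1 libraries lay above both si-ctrl libraries in 171 members and below them in 75, where 20.1% and 13.4% of all transcripts did. In 5 members both si-ctrl libraries were at 0 and both si-PLANE.1 libraries at 1 FPKM or more (0.44% of all transcripts), and in 5 the reverse held (0.508%). Members with a count above 0 numbered 545 and 552 in si-ctrl and 537 and 550 in si-PLANE.1, where 88.5% and 87.8% of all transcripts in si-PLANE.1 were above 0.

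The smallest unadjusted p in si-PLANE.1 belonged to SPCS2P4, a copy of the signal peptidase gene SPCS2, with 36.1 and 65.5 counts in si-ctrl and 9.6 and 11.8 in si-PLANE.1 (log2 fold change −1.91 ± 0.58 SE, edgeR adjusted p = 1.00). GCATP1 had 18 and 14 counts against 3 and 2, ENSG00000267056, a copy of IPMK, had 178 and 258 against 104 and 116, and RPL32P2 had 6 and 9 against 1 and 0. On the higher side, ENSG00000232450, in an intron of PHTF1, had 11 and 12 counts in si-ctrl and 29 and 32 in si-PLANE.1. CPSF1P1 had 135 and 126 against 204 and 156 counts, HMGB1P5 had 0 and 1 against 9 and 5.9, and ENSG00000256157 had 0 and 0 against 3 and 6. In all 8 of these the libraries of the 2 groups did not overlap, and none passed the adjusted threshold. ENSG00000256157 is 196 bases long, and its 3 and 6 counts were listed as 48.4 and 96.0 FPKM. No member passed in both comparisons.

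In si-PLANE.2, 40 members rose and 86 fell (edgeR adjusted p under 0.05), which is 6.17% and 13.3% of the 648, where 12.3% of all transcripts rose and 12% fell (24.3% in either direction). In this fit the share that fell was near that of all transcripts, but this reading turned with the method. With limma on log2(FPKM + 1), 42.6% of the members and 22.8% of all transcripts fell, and with the 6 libraries in one edgeR fit 25.6% and 15.1% did. An unadjusted p under 0.05 was found for 295 members and for 41.4% of all transcripts. The log2 fold change was below 0 in 483 members (53.8% of all transcripts) and above 0 in 136 (45.6%). Both si-PLANE.2 libraries lay below both si-ctrl libraries in 413 members (44.6% of all transcripts) and above them in 79 (27.1%). Members had a median log2 fold change of −2.73, as against −0.19 for all transcripts. With the same bounds the member median was −0.91, and no such median was taken over all transcripts. The size of −2.73 rests in part on members at 0 in a whole group: 247 in si-PLANE.2 alone and 32 in si-ctrl alone. With limma on log2(FPKM + 1) the medians were −0.89 for the members and −0.29 for all transcripts. Members above 0 fell in number from 545 and 552 in si-ctrl to 322 and 312 in si-PLANE.2, while over all transcripts tested the share above 0 was 89.1% and 88.6% in si-ctrl and 83.9% in both si-PLANE.2 libraries. Of the 648, 104 (16.0%) were at 1 FPKM or more in both si-ctrl libraries and at 0 in both si-PLANE.2 libraries, a pattern shown by 4.8% of all transcripts. The reverse was shown by 23 members (3.55%) and by 3.18% of all transcripts. All 126 called members reached 10 counts in some library. Leaving out either si-PLANE.2 library left no call among all transcripts in edgeR, with 210 and 215 members at an unadjusted p under 0.05, and leaving out si-ctrl replicate 1 or 2 left 59 or 43 member calls.

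**Figure D3:**
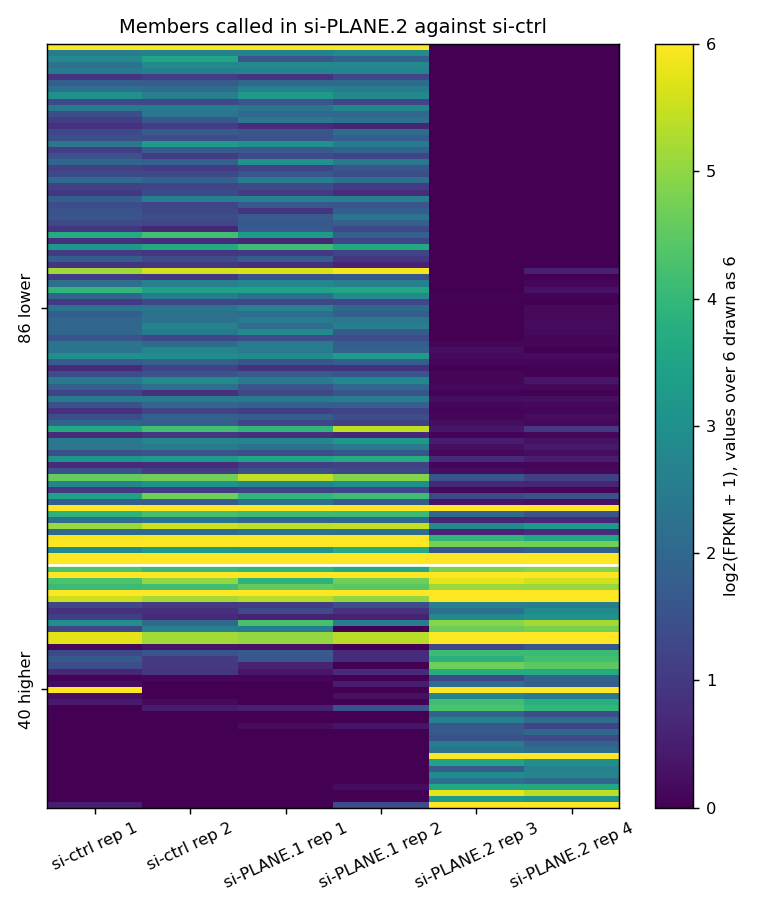
The 126 members called in si-PLANE.2 (rows, ordered by log2 fold change, the white line parting 86 lower from 40 higher) in the 6 libraries (columns), coloured by log2(FPKM + 1) with values over 6 drawn as 6. The si-ctrl and si-PLANE.1 columns are alike, and the 38 lower members at 0 in both si-PLANE.2 libraries form the dark block at the upper right.

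The largest falls were of members listed at 0 in si-PLANE.2. RPL21P16 had 1634 and 1874 counts in si-ctrl, 1098 and 1512 in si-PLANE.1 and 0 in both si-PLANE.2 libraries, at least 660-fold lower (edgeR adjusted p = 0.00539). Its reads cannot be told from those of RPL21 over the stretch printed above, and RPL21 itself rose by 1.10 on the log2 scale (edgeR adjusted p = 0.00125). ENSG00000257680, a copy of METAP1 in an intron of CNTN1, had 54 and 62 counts in si-ctrl and was at least 21.8-fold lower in si-PLANE.2. KRT18P31, in an intron of the cohesin loader gene NIPBL, had 35 and 34 counts in si-ctrl, 34 and 35 in si-PLANE.1 and 0 in si-PLANE.2 (at least 13.0-fold lower, edgeR adjusted p = 0.0253), all whole, while KRT18 was higher by 0.70 and NIPBL lower by a log2 fold change of −1.86. The others were SPCS2P4 (at least 19.1-fold lower), ENSG00000259924, a copy of DNAJB14 (18.8-fold), ENSG00000261072, a copy of HADH in an intron of RFX7 (16.4-fold), SCYL2P1 (13.2-fold) and TCEA1P2 in an intron of GOLGA4 (12.5-fold), each also a lower bound. These 8, chosen among members whose groups did not overlap, had between 30 and 1874 counts in the si-ctrl libraries.

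The largest rises were led by CTD-2328D6.1 (chrX:108297361-108297792, minus strand), with 1 and 0 counts in si-ctrl, 0 and 3 in si-PLANE.1 and 2739 and 2413 in si-PLANE.2 (edgeR adjusted p = 0.00531), described further below. ZBTB45P2 had 0 counts in the first 4 libraries and 238 and 190.6 in si-PLANE.2, at least 62.8-fold higher. FABP5P7, identical to the fatty acid binding gene FABP5 where aligned and lying in an intron of STX3 on the other strand, had 0 counts in 4 libraries and 194.8 and 129 in si-PLANE.2, at least 47.2-fold higher. FABP5 was higher by 2.04 on the log2 scale. PIGCP1 had 0, 0, 0 and 1 counts in the first 4 libraries and 154 and 137 in si-PLANE.2, all whole (at least 42.8-fold higher than si-ctrl, edgeR adjusted p = 0.012). RAB11FIP1P1, opposite an exon of FTX, was at least 29.0-fold higher, LA16c-60H5.7, a copy of TOMM40, 28.6-fold, SLC2A3P1 25.9-fold and ENSG00000259948, opposite an exon of ABHD2, 22-fold, each a lower bound. All 8 were at 0 or 1 count in each si-ctrl library. Transcripts at or near 0 in the first 4 libraries could reach the minimum mean only through their si-PLANE.2 values. The low si-ctrl counts and the size of these rises therefore follow in part from how members were chosen.

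Of the 86 members that fell, 64 lay in another gene on its strand, and of the 40 that rose, 19 lay in another gene on the opposite strand. Over all transcripts tested, 12% fell and 12.3% rose, and those shares apply beside each class count below. Of the 648, 394 lay in an intron of another gene, 108 overlapped an exon of one and 146 lay in no other gene, with pseudogenes not counted as other genes. In an intron of a gene on the same strand there were 324 members, of which 55 fell and 4 rose in si-PLANE.2, with a median log2 fold change of −4.49 (−1.29 with the bounds). In an intron of a gene on the opposite strand there were 35, of which 3 fell and 9 rose, with a median of 0.22 (0.00 with the bounds). Where an exon of the other gene was overlapped, 9 of 73 same-strand members fell and 1 rose (median −2.13), and 1 of 27 opposite-strand members fell and 10 rose (median 0.58). The share of the 73 that fell was near that of all transcripts. Among the 146 in no other gene, 13 fell and 12 rose (median −0.62), smaller shares than over all transcripts. The 43 with other genes on both strands held the remaining 5 lower and 4 higher calls. Over both places, 64 of 397 same-strand members fell and 5 rose, and 4 of 62 opposite-strand members fell and 19 rose. The minimum level was a mean over 6 libraries, 4 of them si-ctrl and si-PLANE.1, so copies high in those 4 passed it more readily. It kept 20.9% of 1550 same-strand and 1.38% of 2541 opposite-strand intronic copies. The division among the members and their medians therefore depend in part on how members were chosen. In si-PLANE.1 the medians of the 5 main classes lay between −0.06 and 0.26 and none held a call.

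**Figure D4:**
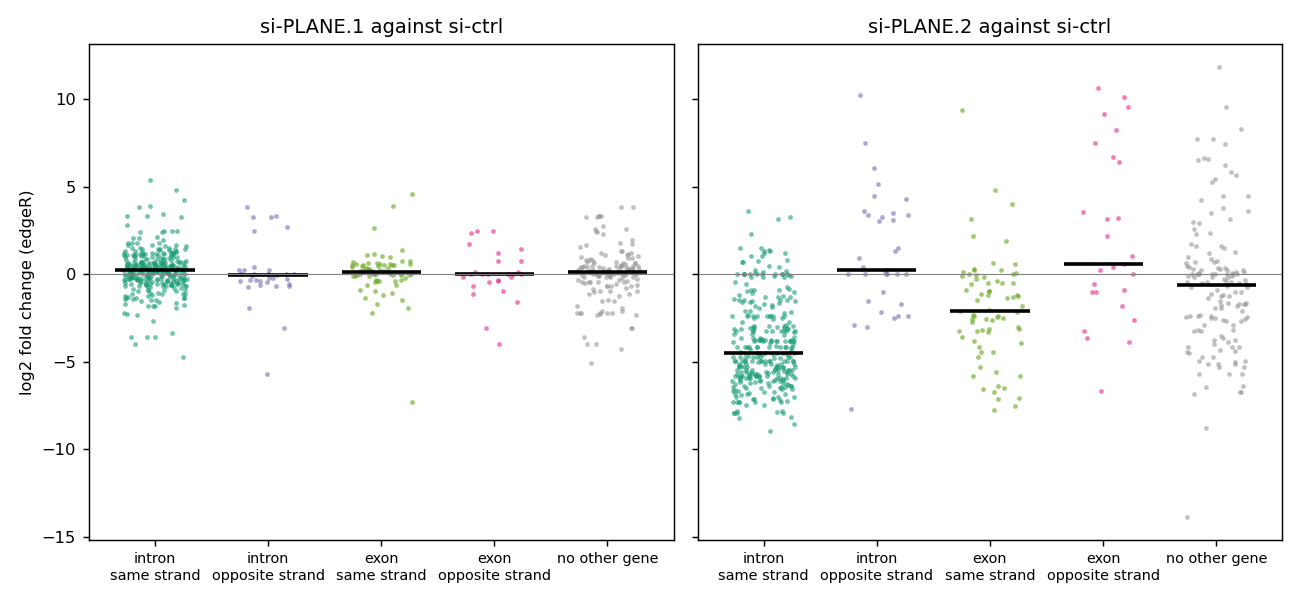
log2 fold change (edgeR) of each member in si-PLANE.1 (left) and si-PLANE.2 (right) against si-ctrl by the place and strand of the other gene; bars are medians and the 43 members with other genes on both strands are not drawn. In si-PLANE.2 the 324 same-strand intronic members centre on −4.49 and the opposite-strand classes on 0.22 and 0.58, while in si-PLANE.1 all classes centre near 0.

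A like division was present among all 10290 processed pseudogene transcripts, which include the members and were not chosen by level. Of 1550 in an intron of a gene on the same strand, 33.4% to 33.8% were above 0 in each si-ctrl and si-PLANE.1 library and 11.9% and 10.8% in si-PLANE.2. Of 2541 in an intron of a gene on the opposite strand, 3.11% to 3.94% were above 0 in the first 4 libraries and 9.37% and 8.70% in si-PLANE.2. Copies opposite an exon went from 10.2% to 12.2% of 443 in the first 4 libraries to 22.6% and 20.3%. Copies that overlapped an exon on the same strand (270) were at 36.3% to 39.6% and then 34.1% in both si-PLANE.2 libraries, and the 5255 copies in no other gene at 6.62% to 6.77% and then 7.76% and 7.35%. The si-PLANE.1 libraries lay beside the si-ctrl libraries in these 5 classes. Whether the libraries were prepared or counted with the same use of strand is not stated in the sources used here, and its part in the result was not tested.

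**Figure D5:**
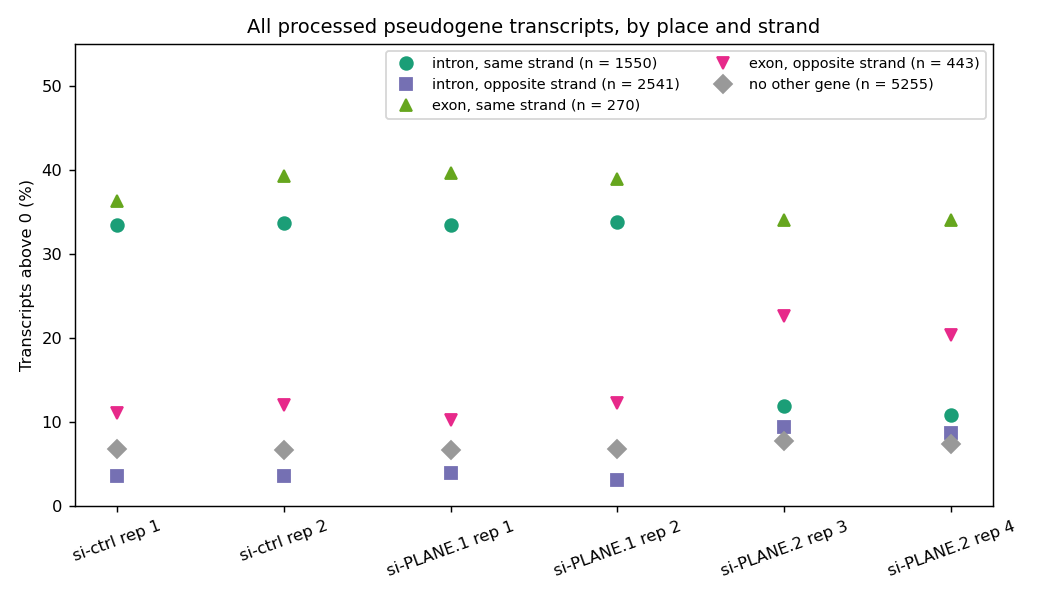
Share of all processed pseudogene transcripts with an expected count above 0 in each library (percent, vertical), by place and strand of the other gene. The same-strand intronic copies drop from over 33% to under 12% in si-PLANE.2, and both opposite-strand classes are higher there than in the other 4 libraries.

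The genes around the same-strand intronic copies had a median fold change nearer 0 than the copies did. The summed counts of the surrounding gene could be tested for 283 of the 324 same-strand intronic members, with a median log2 fold change of −0.54 in si-PLANE.2. In 256 of the 283 the member's log2 fold change was below that of its surrounding gene, and in 199 it was with the bounds in place. Of 17 opposite-strand intronic members with such a gene, 3 were below it, and the median of those genes was −0.68.

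Members with no shared stretch held 44 of the 86 falls and 8 of the 40 rises. These were the 371 of 648 with no 75-base stretch found in another gene (median −3.78). Of all transcripts, 12% fell and 12.3% rose, and those shares apply beside each count in this paragraph. The median of the 371 differed by place. It was −4.27 for the 273 in an intron of another gene, −1.51 for the 67 in no other gene and −0.89 for the 31 overlapping an exon. Among the 178 with up to 50% of such stretches shared, 28 fell and 18 rose (median −1.70), and among the 99 with 50% or more, 14 fell and 14 rose (median −0.98). Of the 40 that rose, 29 had split counts. The 448 members with whole counts held 60 of the 86 falls and 11 of the 40 rises, and the 200 with split counts held 26 of the falls.

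Parent genes as a whole were higher in si-PLANE.2, while their copies were lower by the median. Of 363 parent genes tested by their summed counts, 194 rose and 72 fell in si-PLANE.2. Of all 14440 genes, 31.3% rose and 32.1% fell there (63.4% in either direction). In si-PLANE.1, 0 parent genes were called (0.0346% of all genes). The median log2 fold change of the parent genes in si-PLANE.2 was 0.43, against −0.04 for all genes. For 32 of the 80 members that fell and had a sequence parent, the parent rose, and for 25 it fell. For 17 of the 35 that rose the parent rose, and for 7 it fell. Reads that fit both can be divided between them, so the values of a pair are not independent and the pairs were not tested against each other.

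Cytosolic ribosomal protein genes were the parents of 171 members, the largest named family. In si-PLANE.2, 12 of the 171 fell and 8 rose, smaller shares than the 12% and 12.3% of all transcripts that did. Those shares of all transcripts also apply beside the family counts below. Of the 171, 90 stayed under 10 counts in every library, and 0 of the 273 members at that level were called. The smaller shares therefore do not show that the family changed less. In 112 of the 171 both si-PLANE.2 libraries lay below both si-ctrl libraries (44.6% of all transcripts), and in 22 above them (27.1%). The median log2 fold change of the 171 was −3.14, and −0.86 with the bounds. They were above 0 in 140 cases in si-ctrl replicate 1 and in 78 in si-PLANE.2 replicate 3. The 14 copies of RPL21 summed to 1687 and 1924 counts in si-ctrl, 1147 and 1548 in si-PLANE.1 and 10.2 and 13.0 in si-PLANE.2, and 11 of the 14 were at 0 in both si-PLANE.2 libraries. In si-ctrl and si-PLANE.1 nearly all of that sum was RPL21P16, whose counts are given above. It was the only 1 of the 14 that was called, so the sum mainly describes this copy. The 14 copies of RPS26 summed to 1641 and 1960, 1357 and 1290, and 335 and 412 counts. The 5 copies of RPL9 went the other way, from 1290 and 1342 counts in si-ctrl and 724 and 875 in si-PLANE.1 to 7169 and 5265, with the identical values of RPL9P8 and RPL9P9 counted under both names. Within them the shorter transcripts of RPL9P8 and RPL9P9 (579 bases, again with identical values) had 337 and 459 counts in si-ctrl and 26.7 and 0 in si-PLANE.2, so that more of the counts lay on the shorter form in si-ctrl and on the longer one in si-PLANE.2. The difference in the shorter form did not pass the test (edgeR adjusted p = 0.0735).

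Copies of genes for chromatin and nuclear proteins (35) held 6 rises and 1 fall in si-PLANE.2. More of the 35 were lower than higher, with 22 log2 fold changes below 0 and 11 above (median −1.82, and −0.04 with the bounds). HMGB1P6, a copy of the DNA-bending protein gene HMGB1, rose from 45.5 and 35.3 FPKM in si-ctrl, with 40.2 and 31.5 in si-PLANE.1, to 155 and 129 in si-PLANE.2 (log2 fold change 2.19, edgeR adjusted p = 0.00956). The 8 copies of HMGB1 held 3 rises and 1 fall, and the 4 copies of HMGN2, which encodes a nucleosome-binding protein, held 2 rises, among them HMGN2P4 (2.25 and 1.08, 2.09 and 0.73, then 12.9 and 17.2 FPKM).

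Among the 18 copies of RNA-binding and hnRNP protein genes, 3 fell and 1 rose. LSM12P1, identical to LSM12 where aligned, fell from 109 and 107 FPKM, with 119 and 101 in si-PLANE.1, to 25.8 and 25.3. HNRNPA1P33, a copy of HNRNPA1, was at 13.96 and 13.6, 8.18 and 11.3, and 20.2 and 23.3 FPKM and did not pass. Among the 14 copies of translation factor genes, BTF3L4P2 rose (6.80 and 3.23 FPKM in si-ctrl, 29.4 and 35.5 in si-PLANE.2, with 18.2 and 4.78 in si-PLANE.1), 1 fell, and ENSG00000250568, a copy of PABPC1, did not pass at 2.14 and 10.4 FPKM against 0 in both. Of 15 copies of oxidative phosphorylation genes only UQCRFS1P1, a copy of the Rieske iron-sulfur subunit gene, was called, rising from 0.56 and 0.92 FPKM, with 0.29 and 0.63 in si-PLANE.1, to 12.2 and 11.9. The next highest, COX6CP17, was above 0 in 1 library. Among the 23 copies of chaperone and proteasome genes 4 fell and 0 rose, and the 2 highest, PSMC1P5, with at most 3.2 counts in a library, and DNAJC19P5 (7.40 and 8.18 FPKM in si-ctrl, 0.56 and 0 in si-PLANE.2), did not pass. In the copies of glycolytic and metabolic genes (7), 1 fell, ENO1P3, and the 2 highest, AK4P1 (17.2 and 18.1 against 11.3 and 12.8 FPKM) and TPI1P2, did not pass. In the 14-3-3 and signalling group (4), YWHAZP6 rose (edgeR adjusted p = 0.0404) and the highest, PPP1R14BP3, did not pass.

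Copies of the keratin genes KRT8 and KRT18, which encode the keratin pair of simple epithelium, held calls only in other genes, although copies outside them were also low. The 20 copies of cytoskeleton and keratin genes held 5 falls, all of them keratin copies, and 1 rise, and the highest, TPM4P2, did not pass. The 6 keratin copies in another gene on its strand summed to 212 and 212 counts in si-ctrl, 192 and 175 in si-PLANE.1 and 32.6 and 40.9 in si-PLANE.2, and 5 of the 6 fell. The 3 outside other genes summed to 52 and 82.5, 74.8 and 59, and 103 and 66 counts, and 0 were called. That sum was carried by KRT8P12, which had 2.11 and 2.48 FPKM in si-ctrl, 3.61 and 2.48 in si-PLANE.1 and 4.13 and 3.11 in si-PLANE.2. KRT18P4 had 9 and 32, 13 and 19, and 3 and 0 counts, and KRT8P4 had 10 and 10, 16 and 10, and 0 and 0. The median log2 fold change in si-PLANE.2 was −3.87 for these 3 and −2.81 for the 6 in other genes, so the medians did not separate the places in this family.

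Copies of the mitochondrial genome form a separate kind within the annotation type, since they derive from inserted mitochondrial DNA. This list of 17 members, whose closest gene is mitochondrial, was added after their values were seen. In si-PLANE.2, 8 of the 17 fell and 1 rose. A group of 7 members (chrX:102040595-102062752) lay in introns of the noncoding gene LINC00630 on its strand and summed to 90 and 137 counts in si-ctrl, 125 and 120 in si-PLANE.1 and 0 and 0 in si-PLANE.2. Of these 7, MTND1P32, MTND4P32, MTCYBP32, MTND5P26 and MTCO3P19 fell. MTND6P3, in an intron of KIAA0825, was the member that rose, from 6 and 8 counts in si-ctrl and 7 and 2 in si-PLANE.1 to 105 and 90.

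CTD-2328D6.1 and ENSG00000225840 matched a contig of ribosomal DNA better than any coding gene. Against the unplaced GRCh37 contig GL000220.1, which carries ribosomal DNA, CTD-2328D6.1 was 97.7% identical over 433 aligned bases and ENSG00000225840 was 89.1% identical over 1878 (its annotated model is longer than the 599 bases listed in the tables), both on the contig's minus strand and each at 2 places. These were the only 2 members to match the contig over at least 50% of their length. The best coding match of CTD-2328D6.1 was TEX101 at 78.1%, over 59.3% of its length. A stretch of CTD-2328D6.1 (chrX:108297556-108297675) and of the contig (positions 117211 to 117330, minus strand) is shown because this member rose most, with capitals at the 3 differences of 120 bases:
CTD-2328D6.1: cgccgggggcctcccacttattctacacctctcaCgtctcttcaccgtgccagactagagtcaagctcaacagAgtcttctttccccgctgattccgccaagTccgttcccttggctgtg
GL000220.1: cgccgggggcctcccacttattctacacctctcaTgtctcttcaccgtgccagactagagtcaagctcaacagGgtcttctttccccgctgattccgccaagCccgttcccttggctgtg

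CTD-2328D6.1 had 0.41 and 0 FPKM in si-ctrl, 0 and 1.58 in si-PLANE.1 and 660 and 667 in si-PLANE.2. ENSG00000225840 had 1.69 and 1.01 FPKM in si-ctrl, 0.52 and 0 in si-PLANE.1 and 24.4 and 21.5 in si-PLANE.2 (log2 fold change 4.45 ± 0.46 SE, edgeR adjusted p = 0.0114). For both, the si-PLANE.2 libraries lay far above the other 4. The amount of ribosomal RNA left in each library was not measured, so its part in these values was not tested.

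Of 34 pseudogenes with published regulatory roles that had been listed, 4 were members, 18 were processed pseudogenes under 0.5 FPKM, 5 were in the tables with another type and 7 were not matched by symbol. None of the 4 members was called in either comparison. DUXAP8, a long noncoding RNA gene derived from a DUXA copy, had 21.2 and 20.02 FPKM in si-ctrl, 35.1 and 29.7 in si-PLANE.1 and 7.10 and 9.56 in si-PLANE.2, so that the 3 groups did not overlap, but neither comparison passed (edgeR adjusted p = 1.00 and 0.128). FTH1P3, a copy of the ferritin heavy chain gene FTH1 in an intron of PPM1G, was at 2.42 and 3.38, 2.45 and 1.71, and 0.41 and 0.94 FPKM. It is among the 4 copies of iron storage genes, of which 0 were called and the highest was FTLP14 (4.09 and 3.02, 2.33 and 1.22, and 0.76 and 1.31 FPKM). PDIA3P1, a copy of the disulfide isomerase gene PDIA3, was at 0.73 and 0.82, 1.68 and 1.26, and 0.47 and 0.44 FPKM. HSPB1P1 was above 0 in 1 library, with 2 counts.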

How the data were processed

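RNA-seq of 6 A549 libraries was deposited as 2 tables of transcripts, which share the si-ctrl libraries with identical values. The authors deposited expected counts, estimated reads per transcript that need not be whole and are not normalized, and FPKM values that the authors derived per kilobase of transcript and scaled to library size. Per the labels, the submitters' processing notes name hg19, Trimmomatic 0.30, HISAT2 2.0.1, HTSeq 0.6.1 and DESeq. The tool that estimated counts per transcript is not given in the sources used here.

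Transcript types, places and sequences came from GENCODE v44 lifted to GRCh37, the build of hg19. Of the transcripts at 0.5 FPKM or more, 6290 had no type there and could not be members. Closest genes were found with BLAST 2.17.0 (E-value 1e-05, at least 50% of the member aligned). Shared stretches were windows of 75 and 150 bases found exactly in a transcript of another gene on either strand.

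Expected counts were rounded and tested with the quasi-likelihood test of edgeR 4.0.16 (TMM scaling, R 4.3.3) on all 58827 transcripts at a mean of 0.5 FPKM or more, with Benjamini-Hochberg adjustment, in each comparison of 2 against 2 libraries. Parent and surrounding genes were tested on summed counts, and parent FPKM was summed in the same way. Only transcripts that carry a gene identifier in the deposited data entered these sums, so parent levels leave out any others. SE is the log2 fold change divided by the square root of the test's F. Folds against a group at 0 use a floor of 3 counts per library and cover counting error only. Alternatives used DESeq2 1.42.0 and limma 3.58.1, other filters and scalings, and left-out libraries, and si-PLANE.2 was also tested against si-PLANE.1. The fits were tested on simulated data.

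Named members were the 12 of highest mean FPKM, the 8 largest non-overlapping rises and falls past the threshold in each comparison (in si-PLANE.1, the 4 smallest p in each direction), those nearest the minimum level, the listed regulatory pseudogenes, and the 2 highest of each parent family; the families follow from parent symbols. Other names were chosen after their values were seen. The members and lists were chosen with earlier results of these data known. Values of some listed genes are not reported here.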

Additional observations from a re-analysis of the deposited data

Results flagged for a closer look

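The si-PLANE.2 libraries differed from the si-PLANE.1 libraries when tested directly, and the siRNA and the preparation of the RNA cannot be told apart here either. In edgeR's quasi-likelihood test of si-PLANE.2 against si-PLANE.1, 40 members were higher and 100 lower at an adjusted p under 0.05, where 13.7% of all 58827 transcripts were higher and 12.5% lower. Of the 126 members called in si-PLANE.2 against si-ctrl, 109 were called in the same direction here. The median log2 difference was −2.92 for the members and −0.19 for all transcripts. Of the 100 lower members, 69 lay in an intron of another gene, as did 394 of all 648 members. The 2 comparisons share the si-PLANE.2 libraries.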

How the results depend on the processing

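For si-PLANE.1, 0 members were called under every alternative tried, and the member median stayed above 0; it was 0.07 with a minimum mean of 2 FPKM and 0.01 to 0.24 when 1 library was left out. With the replicate block the median was 0.15 and 0 members were called. The replicate numbers were not taken to pair the samples, since the labels give them no batch and the gaps between replicates 1 and 2 in each group correlated at 0.0726 over all transcripts and 0.119 over members. For si-PLANE.2 no paired analysis was possible because the groups share no replicate number in the labels.

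For si-PLANE.2, the count of 126 (40 higher, 86 lower) became 329 (276 lower) with limma on log2(FPKM + 1), 345 (291 lower) on log2(FPKM + 0.1), 75 (45 lower) with no filter and 205 (166 lower) with the 6 libraries in one fit. Leaving out 1 library gave 0 to 59 calls, 0 to 34 higher and 0 to 25 lower, with 0 when a lone si-PLANE.2 library, assumed to vary like the other group, remained. Among members with no 150-base stretch shared, an alternative chosen after seeing the data, 22 were higher. The member median of −2.73 was −3.01 with DESeq2, −0.89 and −2.51 with limma at pseudocounts of 1 and 0.1, −3.05 with no filter, −1.93 with a minimum of 2 FPKM, −2.61 with the minimum taken over the 4 libraries, −2.88 in processed_pseudogene only, −3.25 with no 150-base stretch shared, and −3.20 to −2.60 when 1 library was left out, and it kept its sign under each. The cause of these differences was not tested, except that the single-library fits use fewer samples. Of the 273 members under 10 counts in every library, 0 were called by edgeR in si-PLANE.2, where 57 had an unadjusted p under 0.05.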
